A study of Mus musculus with 20 samples.

Results

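The genes that act directly behind the receptors for IgG were followed in dendritic cells derived from mouse bone marrow (BMDCs). They were taken from the count table by gene symbol and are the tyrosine kinases Syk, Lyn, Fgr and Btk, the adaptor Lat2, the exchange factor Vav1, the phospholipase Plcg2, and the phosphatases Inpp5d and Ptpn6. The receptors themselves were left out. These were 9 of the 24421 genes listed. All 9 were among the 12465 genes with enough counts to be tested, with between 200 and 13532 counts per gene and library.

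Marrow of 5 mice (A to E) was cultured with GM-CSF at 40 ng/mL for 8 days to obtain BMDCs. Cells of each mouse were given DMSO or I-BET151 (iBET, 3.3 μM), an inhibitor of the BET bromodomain proteins, together with ovalbumin (Ova) or ovalbumin immune complexes (IC) made with a polyclonal rabbit antibody. RNA was taken after 4 hours, which gave DMSO Ova and DMSO IC as control groups and iBET Ova and iBET IC as treated groups, with 5 libraries each and 1 library per mouse in each group. The sample labels give neither strain, sex nor age, and the methods list wild-type C57BL/6 mice of both sexes among those used. In the methods iBET precedes the stimulus, whereas in the labels both are given at once. The control cells had 5% DMSO according to the labels, which are silent on solvent in the iBET cells, so a solvent difference and the effect of iBET cannot be told apart from the labels. The cells were sorted into lysis buffer according to the labels, and no gate is named.

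When IgG complexes cross-link activating Fc gamma receptors, Src family kinases such as Lyn and Fgr phosphorylate the tyrosine motifs of the signalling chain, which recruit and activate Syk. Syk then phosphorylates adaptors, Lat2 among them. Btk, Vav1 and Plcg2 also act downstream of Syk, and lead to calcium release, diacylglycerol and actin remodelling during phagocytosis. The inhibitory receptor Fcgr2b recruits the lipid phosphatase SHIP1 (encoded by Inpp5d), and inhibitory receptors of myeloid cells recruit the tyrosine phosphatase SHP-1 (encoded by Ptpn6), which oppose these steps.

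The genes lie on different chromosomes except for Lyn and Fgr. In GRCm38 with GENCODE M21, Syk spans chr13:52583173-52648792, Lyn chr4:3678115-3813122, Fgr chr4:132974095-133001910 and Btk chrX:134542336-134583570. Lat2 spans chr5:134600022-134615025, Vav1 chr17:57279100-57328031, Plcg2 chr8:117498291-117635142, Inpp5d chr1:87620312-87720507 and Ptpn6 chr6:124720707-124738714. Counts are over exons, and 952 bases of the exons of Lat2 (36.3% of them) also lie in Rfc2, a replication factor gene on the opposite strand. For Lyn and Ptpn6 the shared opposite-strand bases were 248 (6.09%) and 195 (6.96%). The strand setting of the authors' counting is not given in the sources used here, so reads in these bases cannot be assigned with certainty.

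RefSeq promoter entries (GRCm38.p6) were found for 7 of the 9 genes. Vav1 and Inpp5d are shown because they hold the motif marked here, Fgr because it fell most with iBET, and Plcg2 because it was not lower with iBET, each with the 250 bases before the start site. Capitals mark the letters GAGGAAGT, which PU.1, a transcription factor of myeloid cells, is known to bind. They were found on the plus strand 11 bases before the start of Vav1 (chr17:57278850-57279099, plus strand) and 20 bases before that of Inpp5d (chr1:87620062-87620311, plus strand). Neither the window of Fgr (chr4:132973845-132974094, plus strand) nor that of Plcg2 (chr8:117498025-117498274, plus strand) holds these letters. The windows of Syk (2 entries), Ptpn6 and Btk, which were lower with iBET too, do not hold them either, so that they occur in 2 of the 6 genes with an entry that were lower.
Vav1: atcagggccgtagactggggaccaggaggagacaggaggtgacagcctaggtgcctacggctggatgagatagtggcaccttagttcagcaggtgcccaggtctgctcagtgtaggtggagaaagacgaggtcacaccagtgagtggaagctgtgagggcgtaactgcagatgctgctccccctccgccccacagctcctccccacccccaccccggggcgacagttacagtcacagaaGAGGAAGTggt
Inpp5d: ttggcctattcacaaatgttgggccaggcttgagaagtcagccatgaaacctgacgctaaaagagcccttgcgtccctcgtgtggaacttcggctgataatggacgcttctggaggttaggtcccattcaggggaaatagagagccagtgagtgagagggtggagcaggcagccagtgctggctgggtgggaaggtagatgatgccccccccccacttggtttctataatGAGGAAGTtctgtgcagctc
Fgr: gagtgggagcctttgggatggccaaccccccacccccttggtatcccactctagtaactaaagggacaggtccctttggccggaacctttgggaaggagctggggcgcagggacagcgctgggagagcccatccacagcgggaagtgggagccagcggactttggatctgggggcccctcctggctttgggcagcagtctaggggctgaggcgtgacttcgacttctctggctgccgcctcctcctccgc
Plcg2: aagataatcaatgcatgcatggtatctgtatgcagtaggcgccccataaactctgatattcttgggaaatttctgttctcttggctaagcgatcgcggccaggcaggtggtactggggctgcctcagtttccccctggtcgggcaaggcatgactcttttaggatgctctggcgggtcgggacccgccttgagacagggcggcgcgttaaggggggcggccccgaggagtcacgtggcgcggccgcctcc
Of 32851 mouse promoter windows of the same length, 2.44% hold GAGGAAGT on either strand. The other letters searched on both strands were TGAGTCA (AP-1, in 4.46% of all windows), TGACGTCA (CRE, 1.55%), TTGCGCAA (C/EBP, 0.164%) and the core promoter box TATAAA (12.4%), and none of them occurs in the 8 windows of the 7 genes. The number of CpG dinucleotides was 5 in Inpp5d, 7 in Vav1 and Ptpn6, 9 in Fgr, 3 in Btk, 17 in Plcg2 and 27 and 2 in the windows of Syk, against a median of 6 over all windows. Windows of the genes that were lower with iBET held fewer than that of Plcg2, except the Syk window with 27. These matches describe letters in the windows, and binding was not measured.

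Values below are CPM, that is, counts scaled to library size with the TMM method of normalization. Each library held between 16447491 and 29245150 counts (median 21764663). Along principal component 2 (14.7% of the variance), the libraries of mice A and B (scores from -24.6 to -12.2) stood apart from those of mice C, D and E (4.18 to 20.5). The methods mention removal of batch effects with the sva package, but neither they nor the labels say which libraries formed a batch. Each comparison is therefore also given within both sets of mice. As these are bulk libraries, fewer cells of a type and less RNA per cell cannot be told apart.

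Inhibition of BET proteins was accompanied by lower transcript levels of 7 of the 9 genes, in the presence of Ova as well as of IC. Fgr fell most, to 11.3% of its DMSO level with Ova and 12.9% with IC, followed by Lat2 (27.4% and 26%) and Ptpn6 (42.1% and 40.3%). Syk, Vav1, Inpp5d and Btk fell to between 45.4% and 56.5%. Lyn, a Src family kinase like Fgr, did not pass the test with either stimulus, and Plcg2 passed it with IC, where it was 1.11-fold higher. The question put to these data was how iBET acts on the Fc gamma receptor response of dendritic cells. By edgeR's quasi-likelihood test, with an adjusted p of 0.05 as the threshold, 7 of 9 were lower and 0 higher with Ova, where 28.9% of all genes tested were lower and 27.7% higher. With IC, 7 were lower and 1 higher, where 29% of all genes were lower and 27.1% higher. With Ova the median log2 fold change was -1.01 over the 9 genes and -0.003 over all genes, and with IC it was -1.07 and -0.005. The members were chosen with earlier results of these data known. Counts and medians, here and below, therefore describe the 9 genes and do not test for an excess over all genes.

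**Figure D1:**
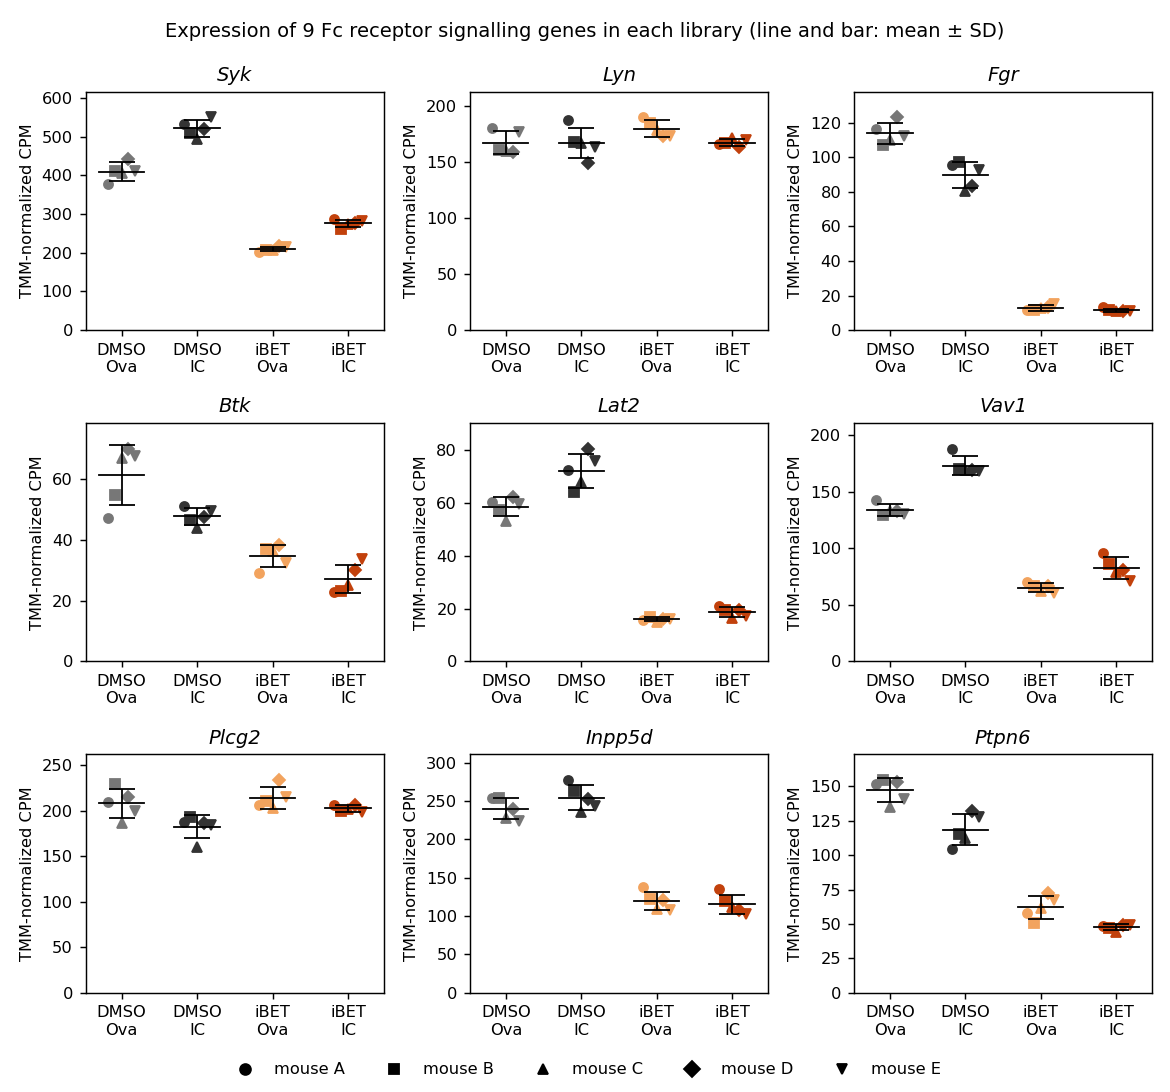
TMM-normalized CPM (vertical axes, from 0) of the 9 genes in the 4 groups. Each point is 1 library, its shape gives the mouse, and lines and bars are the mean and SD of 5 libraries. For Syk, Fgr, Btk, Lat2, Vav1, Inpp5d and Ptpn6 the iBET libraries lie below the DMSO libraries of the same stimulus without overlap, whereas those of Lyn overlap. How many of all genes tested separate in this way was not counted.

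Syk is the kinase that the receptor motifs recruit, and both iBET and IC changed its level. In mice A to E its level was 377, 410.5, 406.9, 442.9 and 411.6 CPM in DMSO Ova and 532.6, 510.0, 494.3, 520.1 and 549.4 CPM in DMSO IC. With iBET it was 201.2, 207.2, 207.8, 216.3 and 215.9 CPM with Ova and 286.8, 261.4, 273.1, 277.5 and 281.0 CPM with IC. The 4 groups did not overlap, and the order DMSO IC, DMSO Ova, iBET IC, iBET Ova was kept in each of the 5 mice. The mean fell from 409.8 ± 23.4 (SD, n = 5) to 209.7 ± 6.42 CPM with Ova and from 521.3 ± 21.1 to 276.0 ± 9.54 CPM with IC. The log2 fold changes were -0.97 (SE 0.0509, adjusted p = 7.77e-12) and -0.92 (SE 0.0508, adjusted p = 1.64e-11). With IC and iBET, Syk therefore stood below its level in DMSO cells that had received Ova alone.

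Lyn, which phosphorylates the receptor chains and can also act through inhibitory receptors, had group means between 167.0 and 180.0 CPM. Its CPM was 180.5, 160.9, 159.8, 158.9 and 177.1 in DMSO Ova and 189.8, 184.9, 178.6, 173.6 and 172.9 in iBET Ova. Mouse E was the one in which iBET was the lower of the pair. In DMSO IC the values were 187.4, 168.3, 166.6, 148.8 and 163.8 CPM, and in iBET IC 165.9, 166.8, 171.6, 163.4 and 169.4 CPM. Here the 5 iBET libraries lie inside the range of the 5 DMSO libraries. The log2 fold change was 0.10 with Ova (SE 0.0583, 95% confidence interval -0.018 to 0.226, adjusted p = 0.137) and 0.0038 with IC (interval -0.118 to 0.126, adjusted p = 0.962). These intervals exclude a change of the size seen for the 7 genes that fell.

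Fgr, the other Src family kinase of the list, showed the largest difference. Its level in DMSO Ova was 116.6, 106.9, 109.8, 123.0 and 112.5 CPM, against 11.5, 11.7, 12.7, 13.3 and 15.1 CPM in iBET Ova. In DMSO IC it was 95.5, 97.0, 80.5, 83.2 and 92.9 CPM, against 13.2, 11.4, 11.1, 11.1 and 11.1 CPM in iBET IC. The lowest DMSO library was thus far above the highest iBET library. Fgr was 8.84-fold lower with Ova (log2 fold change -3.14, SE 0.0828, adjusted p = 1.23e-15) and 7.73-fold lower with IC (-2.95, SE 0.0824, adjusted p = 3.84e-15). Even at this low level, each iBET library held at least 200 counts of Fgr.

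Btk, a Tec family kinase that phosphorylates phospholipase C gamma downstream of Syk, fell less than Fgr did. In DMSO Ova its level was 47.3, 54.7, 67.1, 70.0 and 67.5 CPM, with mouse A lowest, and in DMSO IC 51.3, 46.5, 43.8, 47.4 and 49.5 CPM. The iBET libraries held 29.2, 36.9, 36.4, 38.3 and 32.5 CPM with Ova and 23.0, 23.3, 25.2, 30.04 and 33.5 CPM with IC. All iBET libraries lay below all DMSO libraries. The log2 fold change was -0.82 with both stimuli (SE 0.116 and 0.117), with an adjusted p of 5.49e-06 with Ova and 5.98e-06 with IC.

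Lat2 encodes NTAL, a membrane adaptor on which signalling complexes assemble. Its level was 60.5, 57.3, 53.3, 62.4 and 59.6 CPM in DMSO Ova and 72.4, 64.3, 67.9, 80.6 and 75.9 CPM in DMSO IC. With iBET it was 15.8, 16.9, 15.1, 16.1 and 16.2 CPM with Ova and 20.8, 19.5, 16.6, 19.6 and 17.1 CPM with IC. The mice differed little in iBET Ova, with a mean of 16.0 ± 0.664 CPM (SD, n = 5) against 58.6 ± 3.52 CPM in DMSO Ova. The log2 fold change was -1.87 with Ova (SE 0.0739, adjusted p = 1.29e-13) and -1.95 with IC (SE 0.0736, adjusted p = 6.77e-14). Rfc2, which shares exon bases with Lat2, had a mean of 33.9 ± 2.28 CPM in DMSO Ova and 28.3 ± 2.99 CPM in iBET Ova, and its log2 fold change was -0.26 with Ova (adjusted p = 0.00575) and -0.35 with IC (adjusted p = 0.000462). How far reads of 1 of the genes enter the count of the other was not tested.

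Vav1 encodes an exchange factor that activates Rac at the site of uptake. Its CPM was 142.1, 129.4, 132.9, 133.2 and 129.9 in DMSO Ova and 187.8, 170.2, 169.3, 169.3 and 167.9 in DMSO IC. Under iBET it was 69.8, 66.4, 61.8, 66.4 and 60.0 CPM with Ova and 96.1, 86.0, 78.9, 80.6 and 70.6 CPM with IC. As for Syk, the 4 groups did not overlap and kept the same order in each mouse. Vav1 was 2.06-fold lower with Ova (log2 fold change -1.04, SE 0.0692, adjusted p = 2.1e-10) and 2.1-fold lower with IC (-1.07, SE 0.069, adjusted p = 1.4e-10).

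Plcg2 encodes the phospholipase that cleaves PIP2 into diacylglycerol and inositol trisphosphate. Its level was 209.8, 229.0, 186.0, 215.3 and 200 CPM in DMSO Ova and 206.8, 210.4, 203.0, 233.8 and 215.6 CPM in iBET Ova. These groups overlapped, with iBET higher in 3 of 5 mice, and the log2 fold change was 0.041 (SE 0.0614, 95% confidence interval -0.088 to 0.169, adjusted p = 0.594). In DMSO IC the values were 188.1, 193.6, 160.5, 186.0 and 184.7 CPM, and in iBET IC 206.5, 199.4, 202.3, 206.4 and 199.0 CPM. With IC, iBET was higher in 5 of 5 mice and the groups did not overlap. The log2 fold change was 0.15 (SE 0.0615, adjusted p = 0.0429). This call was lost without mouse A, C, D or E (adjusted p = 0.0924, 0.124, 0.0975 and 0.0869), with scaling to library size only (0.138) and without the filter on low counts (0.0534), and over all alternatives the adjusted p ranged from 0.00428 to 0.35.

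Inpp5d encodes SHIP1, the lipid phosphatase that removes the product of PI3 kinase. Its CPM was 253.5, 253.6, 228.2, 240.3 and 224.5 in DMSO Ova and 277.6, 262.8, 235.6, 252.6 and 243.1 in DMSO IC. In iBET Ova the libraries held 138.0, 121.9, 109.5, 120.7 and 107.3 CPM, and in iBET IC 134.7, 119.6, 112.0, 108.2 and 103.1 CPM. The iBET libraries all lay below the DMSO libraries, and mouse A was the highest of the iBET libraries with both stimuli. The log2 fold change was -1.01 with Ova (SE 0.0791, adjusted p = 2.17e-09) and -1.14 with IC (SE 0.0793, adjusted p = 3.91e-10).

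Ptpn6 encodes SHP-1, which dephosphorylates Syk and its substrates. Its level was 151.8, 154.7, 135.3, 153.2 and 141.1 CPM in DMSO Ova and 104.6, 115.1, 112.3, 132.1 and 128.0 CPM in DMSO IC. It was 57.7, 50.4, 61.7, 72.4 and 67.7 CPM in iBET Ova and 48.7, 47.0, 44.2, 49.5 and 49.4 CPM in iBET IC. The 4 groups did not overlap, and iBET IC was the lowest. Ptpn6 was 2.37-fold lower with Ova (log2 fold change -1.25, SE 0.085, adjusted p = 2.95e-10) and 2.48-fold lower with IC (-1.31, SE 0.0854, adjusted p = 1.51e-10).

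**Figure D2:**
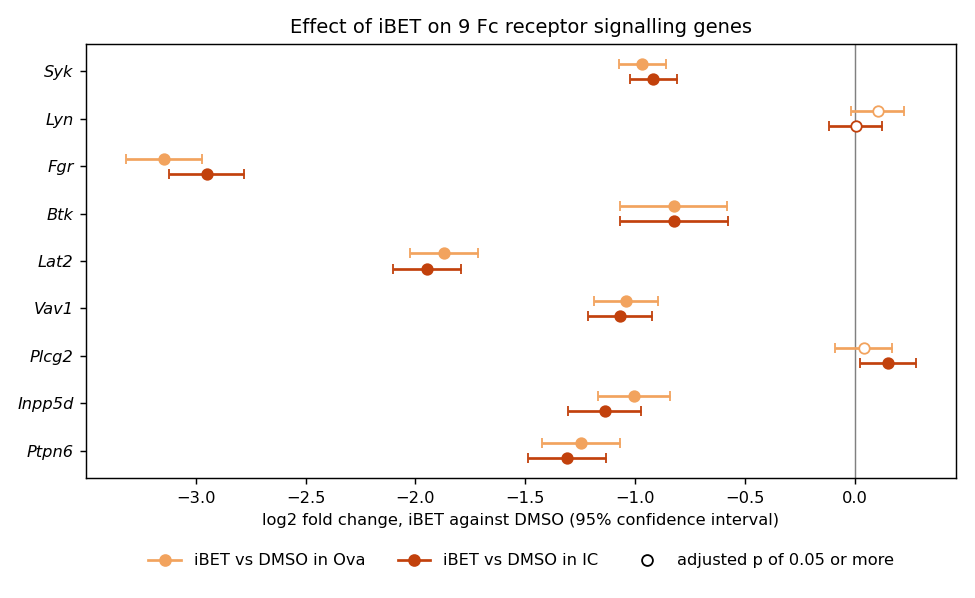
Log2 fold change of iBET against DMSO (horizontal axis) for the 9 genes, with Ova and with IC. Points are edgeR estimates, bars are unadjusted 95% confidence intervals, and open points did not pass the adjusted p of 0.05. The intervals of 7 genes lie below 0 for both stimuli, with Fgr at -3.14 and -2.95, and those of Lyn span 0.

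The 7 genes were lower within both sets of mice. With Ova, the log2 fold changes in mice A and B and in mice C, D and E were -0.95 and -0.93 for Syk, -3.27 and -3.02 for Fgr, -0.63 and -0.89 for Btk, and -1.86 and -1.84 for Lat2. They were -0.999 and -1.03 for Vav1, -0.97 and -0.99 for Inpp5d, and -1.51 and -1.04 for Ptpn6. With IC they were -0.91 and -0.89 for Syk, -2.95 and -2.92 for Fgr, -1.06 and -0.64 for Btk, and -1.74 and -2.05 for Lat2. For Vav1 they were -0.96 and -1.11, for Inpp5d -1.07 and -1.15, and for Ptpn6 -1.18 and -1.35. For Lyn the values were 0.13 and 0.13 with Ova and -0.078 and 0.10 with IC, and for Plcg2 -0.077 and 0.17 with Ova and 0.11 and 0.22 with IC.

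Stimulation with IC changed 7 of the 9 genes in DMSO cells, in both directions. For the 7 genes that fell with iBET, the estimates of the IC effect were smaller in size than those of iBET, whereas for Plcg2 the IC effect in DMSO (log2 fold change -0.19) was the larger one. In DMSO cells, IC raised Syk, Vav1 and Lat2 by 1.27-fold, 1.3-fold and 1.23-fold over Ova, and lowered Fgr, Ptpn6, Btk and Plcg2 to between 77.8% and 87.8% of the Ova level. Among these, the kinase Syk and the exchange factor Vav1, which were higher, are parts of the activating pathway. The genes that were lower included activating kinases as well as the phosphatase SHP-1. With edgeR, 3 of 9 were higher, where 9.59% of all genes tested were, and 4 were lower, where 10.7% were. The median log2 fold change of the 9 genes was -0.0042, and that of all genes was -0.024. This comparison and the iBET comparisons share libraries, so their values are given side by side and were not correlated.

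For Syk, the log2 fold change of IC against Ova in DMSO was 0.35 (SE 0.0505, adjusted p = 9.5e-05), higher in 5 of 5 mice with no overlap of the groups. Vav1 rose by 0.37 (SE 0.0682, adjusted p = 0.000798), with a narrow range between mice from 0.35 to 0.40. Lat2 rose by 0.30 (SE 0.0702, adjusted p = 0.00513), and the log2 fold change of Rfc2, its opposite-strand neighbour, was 0.085 (adjusted p = 0.463). All 5 mice showed the rise of these 3 genes.

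Fgr fell by 0.34 on the log2 scale (SE 0.0748, adjusted p = 0.00331) and Ptpn6 by 0.31 (SE 0.0835, adjusted p = 0.0121), both in 5 of 5 mice and without overlap. Ptpn6 lost its call without mouse A (adjusted p = 0.0634) or mouse C (0.068), within a range from 8.8e-05 to 0.108 over the alternatives. Btk fell by 0.36 (SE 0.115, adjusted p = 0.0318) with overlapping groups, since mouse A was higher with IC (51.3 against 47.3 CPM). Its call was lost without mouse B, C, D or E (adjusted p = 0.0627, 0.213, 0.15 and 0.0811), within a range from 0.00174 to 0.817. Plcg2 fell by 0.19 (SE 0.0615, adjusted p = 0.0362) in 5 of 5 mice with overlapping groups, and its call was lost on leaving out any 1 mouse (adjusted p from 0.0763 to 0.119) within a range from 0.000883 to 0.211. Lyn and Inpp5d did not pass the test, with log2 fold changes of -0.0042 (95% confidence interval -0.126 to 0.118, adjusted p = 0.975) and 0.084 (-0.08 to 0.247, adjusted p = 0.501). Inpp5d was higher with IC in 5 of 5 mice, by 0.046 to 0.131.

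Under iBET, IC raised Syk and Vav1 from their lower baseline and lowered Ptpn6. Syk rose 1.32-fold (log2 fold change 0.40, SE 0.0506, adjusted p = 3.65e-05) and Vav1 1.27-fold (0.35, SE 0.0688, adjusted p = 0.00259), while Ptpn6 fell to 77% (-0.38, SE 0.0846, adjusted p = 0.00664). These 3 changes were seen in 5 of 5 mice with no overlap between the groups. How many of all genes tested do so, here or with IC in DMSO, was not counted. The call for Ptpn6 was lost without mouse C (adjusted p = 0.0694), within a range from 1.98e-05 to 0.359. Thus 2 of 9 were higher, where 5.19% of all genes tested were, and 1 was lower, where 6.63% were.

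Lat2 and Btk came close to the threshold under iBET. The log2 fold change of Lat2 was 0.23 (SE 0.0735, adjusted p = 0.0516) and that of Btk -0.36 (SE 0.117, adjusted p = 0.0505). With the mouse as a replicate block both passed (Lat2 0.23, adjusted p = 0.0107; Btk -0.37, adjusted p = 0.00801), so that 3 of 9 were higher and 2 lower, where 14.2% of all genes were higher and 14.7% lower in that fit. Over all alternatives the adjusted p ranged from 0.00617 to 0.323 for Lat2 and from 0.00155 to 0.227 for Btk. Lyn was lower with IC in 5 of 5 mice and the groups did not overlap (172.9 to 189.8 CPM with Ova, 163.4 to 171.6 CPM with IC), yet the log2 fold change of -0.10 did not pass the test (SE 0.0583, adjusted p = 0.273). Fgr (-0.15, 95% confidence interval -0.317 to 0.021), Plcg2 (-0.078, -0.206 to 0.051) and Inpp5d (-0.048, -0.212 to 0.116) did not pass it either (adjusted p = 0.26, 0.47 and 0.761).

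**Figure D3:**
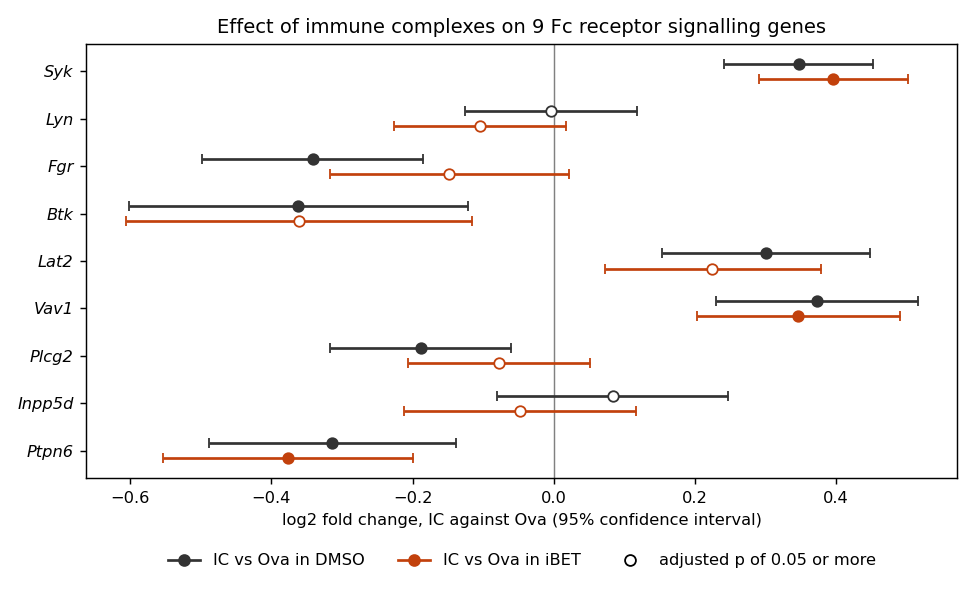
Log2 fold change of IC against Ova (horizontal axis) for the 9 genes, in DMSO and in iBET. Points are edgeR estimates, bars are unadjusted 95% confidence intervals, and open points did not pass the adjusted p of 0.05. Syk and Vav1 lie above 0 and Ptpn6 below 0 in both, with filled points.

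The sets of mice were also compared for the IC effect. In DMSO, mice A and B against mice C, D and E gave log2 fold changes of 0.39 and 0.33 for Syk, 0.39 and 0.37 for Vav1, 0.20 and 0.37 for Lat2, and -0.23 and -0.41 for Fgr. Ptpn6 gave -0.49 and -0.19, Plcg2 -0.21 and -0.16, and Btk -0.069 and -0.52. The fall of Btk with IC in DMSO was thus seen in mice C, D and E (adjusted p = 0.00174) and was near 0 in mice A and B (adjusted p = 0.817). Under iBET the values were 0.44 and 0.38 for Syk, 0.43 and 0.29 for Vav1, and -0.17 and -0.50 for Ptpn6. Fgr differed in sign between the sets under iBET (0.099 and -0.31), and Lat2 (0.32 and 0.16) and Btk (-0.50 and -0.28) did not. When libraries were scaled to their totals only, the median log2 fold change of all genes moved from -0.024 to -0.131 in DMSO and from -0.014 to -0.121 in iBET, and the share of higher genes among the calls from 47.3% to 18.3% and from 43.9% to 13.4%. Under this scaling the value of Inpp5d in DMSO changed sign to -0.024, and Lyn, Fgr, Btk and Plcg2 passed the test as lower under iBET.

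Whether the effect of iBET depended on the stimulus was tested as an interaction, the log2 fold change of iBET with IC minus that with Ova. None of the 9 genes passed the test with edgeR, and 0 had an unadjusted p below 0.05, where 0.0401% of all genes tested passed. DESeq2 and the fit with the replicate block also called 0 of the 9. The estimates ranged from -0.13 for Inpp5d (95% confidence interval -0.363 to 0.1) to 0.19 for Fgr (-0.037 to 0.424). For Syk the estimate was 0.049 (-0.1 to 0.198) and for Vav1 -0.027 (-0.229 to 0.176), and the widest interval was that of Btk (-0.353 to 0.355). Differences within these intervals cannot be told from none in this fit, which leaves the mouse out. For Inpp5d the difference was below 0 in 5 of 5 mice (-0.231 to -0.013). With the replicate block in edgeR its estimate was -0.131, with an SE of 0.0614 in place of 0.111 (adjusted p = 0.434).

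Levels were compared between genes as CPM per kb of exon. The lengths were exon unions of GENCODE M21, from 2621 bases for Lat2 to 9362 for Syk. The order of genes depends on these lengths, and the annotation used for counting is not given. Other lengths were not tested, and the SD covers the spread between libraries only. In DMSO Ova, Ptpn6 was highest with 52.5 ± 3.06 CPM per kb (SD, n = 5), followed by Plcg2 (48.4 ± 3.77), Syk (43.8 ± 2.50), Lyn (41.1 ± 2.57), Vav1 (36.2 ± 1.39), Inpp5d (31.6 ± 1.80), Fgr (29.4 ± 1.62), Lat2 (22.4 ± 1.34) and Btk (19.5 ± 3.12). The ranges of libraries of neighbours in this order overlapped, except that Lyn was above Vav1 (39.0 to 44.3 against 35.1 to 38.5), Vav1 above Inpp5d (29.5 to 33.4) and Fgr (27.7 to 31.8) above Lat2 (20.3 to 23.8). In DMSO IC, Syk (55.7 ± 2.25) and Vav1 (46.9 ± 2.27) stood first, with no overlap between their libraries (52.8 to 58.7 against 45.5 to 50.9), and Ptpn6 (42.3 ± 4.06) lay beside Plcg2 (42.5 ± 2.98) and Lyn (41.0 ± 3.39).

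With iBET the order of levels changed. Plcg2 (49.8 ± 2.80 CPM per kb in iBET Ova) and Lyn (44.2 ± 1.79) stood alone at the top, and the next gene, Syk, was at 22.4 ± 0.685. Ptpn6 (22.1 ± 3.06) did not differ from Syk beyond the spread. Vav1 (17.6 ± 1.08) and Inpp5d (15.7 ± 1.61) overlapped, and Btk (11.0 ± 1.19), Lat2 (6.12 ± 0.253) and Fgr (3.33 ± 0.382) followed without overlap. In iBET IC, Plcg2 (47.2 ± 0.850), Lyn (41.1 ± 0.780) and Syk (29.5 ± 1.02) were followed by Vav1 (22.4 ± 2.56), Ptpn6 (17.0 ± 0.794) and Inpp5d (15.2 ± 1.62), and Fgr was last (3.00 ± 0.231). The ratio of the level per kb of Fgr to that of Lyn was 0.718 ± 0.0584 in DMSO Ova, 0.568 ± 0.0427 in DMSO IC, 0.0756 ± 0.0115 in iBET Ova and 0.0731 ± 0.00619 in iBET IC.

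**Figure D4:**
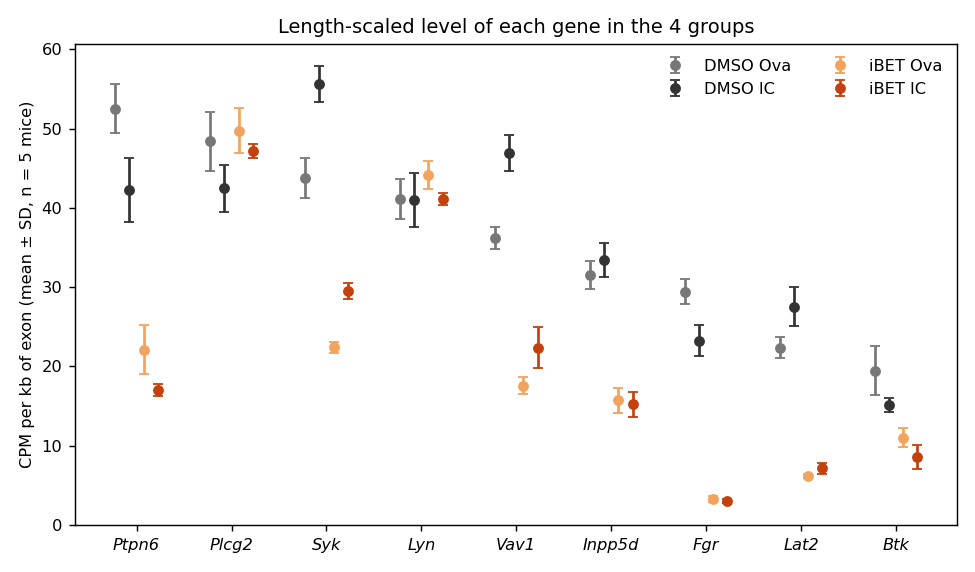
Level of each gene as CPM per kb of exon (vertical axis, from 0) in the 4 groups, with genes ordered by their level in DMSO Ova. Points and bars are the mean and SD of 5 libraries. Plcg2 and Lyn stay between 41.0 and 49.8 in each group, whereas Fgr goes from 29.4 in DMSO Ova to 3.33 in iBET Ova.

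The receptors and the signalling chain were set beside these genes. With iBET and Ova, Fcgr1, the high-affinity receptor, was at a log2 fold change of -2.09 (adjusted p = 1.37e-09), the inhibitory Fcgr2b at -1.31 (adjusted p = 2.04e-06) and the activating Fcgr3 at -1.25 (adjusted p = 7.06e-06). The chain Fcer1g, which carries the tyrosine motif that Syk binds, was at 0.13 (adjusted p = 0.345). Of the 5 genes, 4 were lower with Ova and 3 with IC, where 28.9% and 29% of all genes tested were lower. Among them Fcgr4 had few reads, with a mean of 15.95 counts. By edgeR it passed the test with Ova (adjusted p = 0.00728) but not with IC (adjusted p = 0.113). In response to IC, Fcgr1 was lower in DMSO (-0.43, adjusted p = 0.0483). Under iBET 0 of the 5 passed the test, where 5.19% of all genes tested were higher and 6.63% lower. With the replicate block, 4 of the 5 were lower and 1 higher with iBET and Ova, so Fcer1g passed too. In that fit 4385 of all 12465 genes were lower and 4175 higher. With iBET and IC, 4 were lower and 0 higher, where 4408 and 4065 of all genes were. For IC against Ova, 1 was higher and 1 lower in DMSO, where 18.3% and 19.8% of all genes were. The same counts were found under iBET, where 14.2% and 14.7% were.

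A wider list held 77 further genes of the Fc gamma receptor pathway, of which 71 were tested. With iBET and Ova, 34 were lower and 16 higher, where 28.9% of all genes tested were lower and 27.7% higher, and the median log2 fold change was -0.26. With IC, 35 were lower and 14 higher, where 29% of all genes were lower and 27.1% higher, and the median was -0.32. The counts for the single lists are to be read against the same shares, and several lie near or below them. These lists too were chosen with earlier results of these data known, so the counts are a description. Of the other tyrosine kinases and their regulators 7 of 11 were lower and 2 higher with Ova, of the adaptors 9 of 20 lower and 3 higher, and of the exchange factors and small GTPases 6 of 8 lower and 0 higher. Of the phosphatases and inhibitory adaptors 5 of 11 were lower and 1 higher, and of protein kinase C and its effectors 3 of 8 were lower and 3 higher. The lipid enzymes, which include the PI3 kinase subunits, were the one list with more genes higher (7 of 13) than lower (4) with Ova. With IC, the lower and higher counts were 6 and 2 for the kinases, 9 and 3 for the adaptors, 5 and 6 for the lipid enzymes, 4 and 0 for the exchange factors, 8 and 1 for the phosphatases, and 3 and 2 for protein kinase C and its effectors.

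Among the genes of the wider list with a mean of at least 100 counts, Ptpn22 and Dok2, which restrain receptor signalling, had the largest falls, with larger estimates than any of the 9 genes with Ova. Ptpn22, a tyrosine phosphatase that acts on Src and Syk family kinases, went from 19.4 ± 4.75 to 1.66 ± 0.219 CPM (log2 fold change -3.55, SE 0.22, adjusted p = 7.9e-11). Its mean of 171.8 counts came mostly from the DMSO groups, at 19.4 CPM with Ova and 8.39 CPM with IC. With iBET it was at 1.66 and 1.04 CPM, so its rank rests on few reads there. Dok2, an adaptor that recruits a Ras inhibitor, went from 108.3 ± 15.0 to 10.8 ± 0.901 CPM (-3.32, SE 0.11, adjusted p = 1.55e-14). Blnk, an adaptor that links Syk to Btk and phospholipase C gamma in B cells, went from 42.0 ± 9.99 to 7.70 ± 2.03 CPM (log2 fold change -2.44, SE 0.221, adjusted p = 1.45e-08). With IC these 3 genes were at -3.02, -2.79 and -1.96 (adjusted p = 1.36e-09, 1.13e-13 and 2.16e-07). Lower transcripts with iBET therefore included positive and negative regulators of the pathway.

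The largest rises among the genes with a mean of at least 100 counts were smaller than these falls. Prkce, a diacylglycerol-responsive protein kinase C, went from 11.3 ± 2.38 to 24.2 ± 3.74 CPM with Ova (log2 fold change 1.10, SE 0.15, adjusted p = 3.61e-06) and from 7.47 ± 0.844 to 19.7 ± 3.41 CPM with IC (1.4, SE 0.154, adjusted p = 2.05e-07). Inpp4a, a phosphoinositide phosphatase, rose by 0.78 with Ova (adjusted p = 0.000215) and 0.76 with IC (adjusted p = 0.000277). Pik3r1, a regulatory subunit of PI3 kinase, rose by 0.68 with Ova (SE 0.227, adjusted p = 0.0161). With IC the third largest rise at this mean count was that of Ptpn11, which encodes the phosphatase SHP-2 and is related to Ptpn6, from 116.3 ± 4.55 to 178.0 ± 10.7 CPM (0.61, SE 0.0539, adjusted p = 9.79e-09).

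In response to IC in DMSO, 8 of the 71 genes were higher and 11 lower, where 9.59% of all genes tested were higher and 10.7% lower, so the counts lie near those of all genes. Ptpn1, a tyrosine phosphatase, rose by 0.71 on the log2 scale (adjusted p = 0.000412) and the adaptor Grb2 by 0.61 (adjusted p = 0.00113), whereas Ptpn22 fell by 1.21 (adjusted p = 0.000195) and Dok2 by 0.93 (adjusted p = 3.26e-06). Both of the latter fell with IC as well as with iBET. Under iBET, 4 were higher and 5 lower, where 5.19% and 6.63% of all genes were, among them Pik3r5 (0.77, adjusted p = 0.0177) and Malt1 (0.46, adjusted p = 0.0478) higher and Card9 (-0.50, adjusted p = 7.84e-05) and Pik3r6 (-0.49, adjusted p = 0.00316) lower. With the replicate block the counts were 17 higher and 19 lower in DMSO, where 18.3% and 19.8% of all genes were, and 13 higher and 12 lower under iBET, where 14.2% and 14.7% were. No gene of the wider list passed the interaction test with edgeR, where 0.0401% of all genes tested did. Of the 71 genes, 5 had an unadjusted p below 0.05, where 543 of all 12465 genes tested had. With the replicate block 3 of the 71 passed, where 50 of the 12465 genes were higher and 52 lower.

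**Figure D5:**
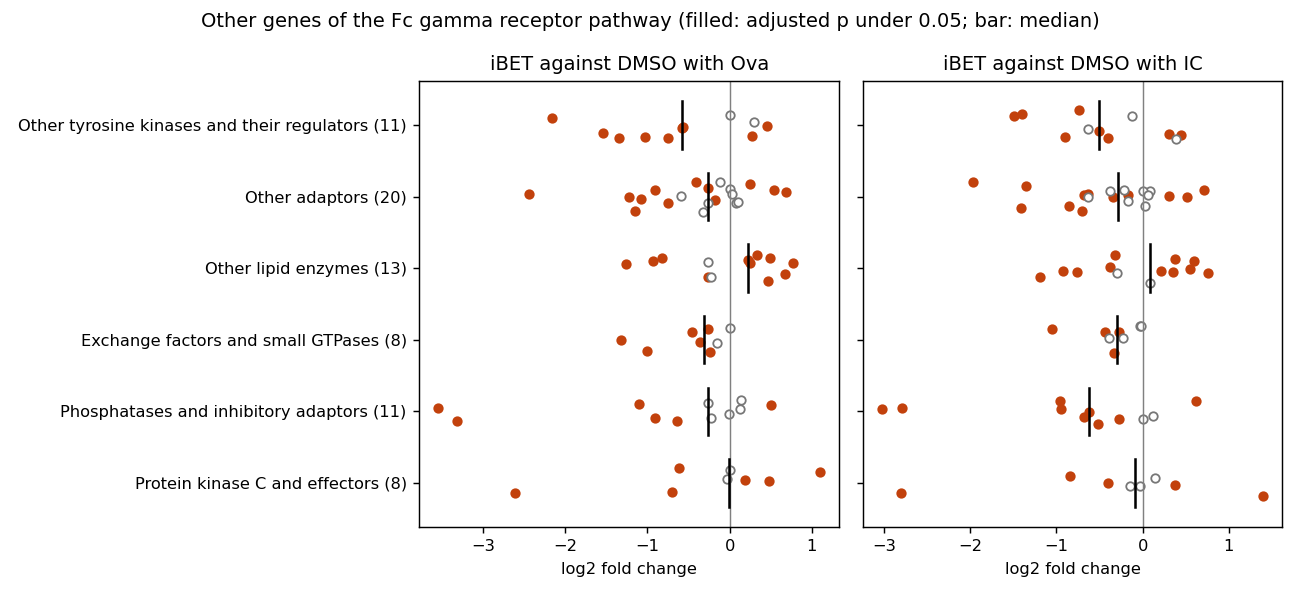
Log2 fold change of iBET against DMSO (horizontal axes) for the 71 other pathway genes, with Ova on the left and with IC on the right, by list (number of genes tested in brackets). Each point is a gene, filled where the adjusted p was below 0.05, the bar is the median of the list, and the vertical spread within a list carries no value. Points reach -3.55 on the left, and the lipid enzymes are the one list with a median above 0 in both.

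For each of the 9 genes, the genes with the most similar log2 CPM over the 20 libraries were looked up among 9782 genes with a mean of at least 100 counts. These correlations run over the same 4 groups and carry no test. Syk was closest to Nrp2 (r = 0.993) and Ptgir (0.992), Vav1 to Il7r (0.991) and Ptafr (0.987), Lat2 to Tlr13 (0.993) and Rab7b (0.992), and Fgr to Pycard (0.994) and Sash3 (0.992). Inpp5d was closest to Arl11 (0.991) and Pwwp2b (0.988), Ptpn6 to Ahrr (0.987), and Btk to Nhsl2 and Rassf4 (0.969 for both). The 2 genes that did not fall had weaker neighbours, Plcg2 with Rab3d (0.917) and Tcp11l2 (0.873) and Lyn with Esyt2 (0.801) and Nif3l1 (0.766).

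Markers of the cells were examined beside these results. The 5 dendritic cell markers differed widely in level. Group means were 1962 to 2285 CPM for Itgax, 2661 to 3809 CPM for Cd74 and 286.9 to 376.9 CPM for H2-Ab1. Zbtb46 was at 20.0 to 32.3 CPM and Flt3 at 0.242 to 3.03 CPM, below the macrophage marker Csf1r at 582.3 to 1032 CPM. Of the 5, Flt3 was the one that passed the test, falling with iBET from 3.03 to 0.242 CPM with Ova. The 5 macrophage and monocyte markers summed to 1271 to 1791 CPM in DMSO Ova, 1370 to 1927 in DMSO IC, 892.1 to 1249 in iBET Ova and 939.6 to 1438 in iBET IC. Of these, Csf1r was lower with iBET (log2 fold change -0.83 with Ova, adjusted p = 3.23e-05), and the others did not pass the test. More markers passed with the replicate block. With iBET and Ova, 1 of the 5 dendritic cell markers was higher and 2 lower, and 2 of the 5 macrophage and monocyte markers were lower. With iBET and IC, 2 dendritic cell markers were higher and 2 lower, and 2 macrophage and monocyte markers were lower. For IC against Ova, 3 and 2 markers of these lists were higher in DMSO, and 3 and 3 under iBET. The counts over all genes in that fit are those given above for the receptors. The part of these shifts in the lower levels of the 7 genes was not tested. The summed range over libraries was 12.1 to 51.4 CPM for the 7 neutrophil markers listed, of which Mpo was higher with iBET from 0.0331 to 0.449 CPM, and 13.3 to 49.3 CPM for the 7 mast cell and basophil markers, of which Gata2 was lower with iBET with both stimuli, Hdc was lower with iBET in IC and higher with IC in DMSO. Markers of B cells reached at most 0.772 CPM in sum and those of T and NK cells 0.284 CPM, with Pax5 at 1 count or 0 in every library.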

How the data were processed

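RNA-seq of BMDCs was analysed for 20 libraries (4 groups of 5 mice). According to the methods and the submitters' processing notes, reads were trimmed with Trim Galore, aligned to mm10 with HISAT2 and counted on genes with featureCounts. The annotation, the strand setting and the treatment of multiply assigned reads are not given in the sources used here. The authors deposited raw counts per gene and library. A further table deposited by the authors holds signal values, that is, counts scaled by a library's size factor. The methods name DESeq2 with an unstated design and removal of batch effects with sva.

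From the counts, genes were kept by filterByExpr and TMM factors were computed, and edgeR 4.0.16 (R 4.3.3) was run as a quasi-likelihood test in which group was the single factor. P values were adjusted over 12465 genes with the Benjamini-Hochberg method, with 0.05 as the threshold. Intervals are 95% and unadjusted. Values are TMM-normalized CPM, log2 CPM used a prior count of 2, and lengths are exon unions of GENCODE M21. The depth of 16447491 to 29245150 counts per library sets the counting error of each CPM value. Libraries of a group differed by more than this error (chi-square per degree of freedom at least 13.2 in 40 pairs), so the SD between mice is given.

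The mouse letter in the labels pairs the libraries of an animal. Deviations from the group means were correlated within a mouse (lowest 0.291, mean 0.626 over 30 pairs), and the replicate block was run as an alternative. The members and gene lists were chosen with earlier results of these data known. Besides the 9 genes, the text names pathway genes that passed the threshold, moved in 1 direction in 5 of 5 mice and had a mean count of 100 or more. Of these, the 3 top rises and 3 top falls were taken for each iBET comparison and 2 of each for IC. For each of the 9 genes, the 2 genes with the highest Pearson correlation are named (also with a mean count of 100 or more), except 1 that is not reported here. The genes of the ratios between levels were chosen after their values were seen.

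The alternatives were the replicate block, DESeq2 1.42.0 (Wald test) without and with it, scaling by DESeq2 size factors or by library size alone, no filter on low counts, the groups compared alone, log2 signal with a pseudocount of 1 in limma 3.58.1, 3 surrogate variables from sva 3.50.0, each mouse left out, and both sets of mice. The tests were tested on simulated data.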

Additional observations from a re-analysis of the deposited data

Results flagged for a closer look

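In 3 of the 36 groups of 5 libraries examined (9 genes in 4 groups), 1 library stood apart from the other 4 by more than 0.71 of the range of the group, and chance alone gives about 1 in 20 such groups. Vav1 in DMSO IC was 187.8 CPM in mouse A, against 167.9 to 170.2 CPM in the other mice, and mouse A also had the highest Vav1 level in each of the other groups. Plcg2 in DMSO IC was 160.5 CPM in mouse C, against 184.7 to 193.6 CPM, and this library is part of the iBET comparison with IC, where the call for Plcg2 was lost without mouse C (log2 fold change 0.12 in place of 0.15, adjusted p = 0.124, with a range from 0.00428 to 0.35 over the alternatives). Fgr in iBET IC was 13.2 CPM in mouse A, against 11.1 to 11.4 CPM, a gap that is small beside the DMSO IC libraries at 80.5 CPM or more. None of the 9 genes passed the interaction test of iBET and stimulus.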

How the results depend on the processing

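With iBET, the 7 genes that fell kept their direction and passed the threshold under all alternatives. With Lyn, 1 of 144 member values in Ova passed the threshold anew (0.11 in DESeq2 with the replicate block, adjusted p = 0.0428), and Plcg2 in IC lost its call in 7. For IC against Ova in DMSO, 20 of 144 values lost their call, and 7 genes called became 2 in mice A and B only and 4 to 5 with 1 mouse left out (lowest without mouse C). Under iBET, 3 of 144 lost and 17 gained a call. The 3 genes called became 5 with DESeq2, with DESeq2 and the replicate block, with the replicate block in edgeR and with limma. They became 7 with library size only and 1 in mice A and B only. Scaling to library totals also shifted the calls over all genes, from 647 higher and 827 lower to 313 and 2030. The count of 7 is to be read against this shift. The block in edgeR raised the shares of all genes from 5.19% higher and 6.63% lower to 14.2% and 14.7%. In limma 686 of all genes were higher and 823 lower, and the shares for DESeq2 are not given here. Of the 71 pathway genes, 19 called for IC in DMSO became 36 with the replicate block, 39 with DESeq2 and the block, 31 with surrogate variables, 9 in mice A and B and 11 to 17 with 1 mouse left out. Under iBET, 9 became 25, 26, 19, 3 and 3 to 7, and for the interaction 0 became 3, 3 and 1 with the block, DESeq2 with the block and surrogate variables. The cause of these changes was not tested, and in the smaller fits fewer mice and a difference between mice cannot be told apart. The replicate block changed no other call of the 9 genes.

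Values near 0 changed sign. With library size only these were Plcg2 with iBET in Ova (-0.0089), Lyn with iBET in IC (-0.046) and Inpp5d with IC in DMSO (-0.024). In mice A and B only they were Plcg2 with iBET in Ova (-0.077), Lyn with iBET in IC (-0.078), Lyn with IC in DMSO (0.047), Fgr with IC under iBET (0.099), and for the interaction Btk (-0.43), Vav1 (0.043), Ptpn6 (0.33) and Lat2 (0.11). The interaction of Btk was -0.0196 with the replicate block, -0.019 with DESeq2 and the block, -0.0049 without the filter, -0.018 with limma and -0.096 with surrogate variables, and Lyn with IC in DMSO was 0.0022 without the filter. With 1 mouse left out, Lyn ranged from -0.027 to 0.052 with iBET in IC and from -0.0202 to 0.023 with IC in DMSO, and the interaction from -0.133 to 0.105 for Btk and from -0.161 to 0.013 for Ptpn6. None of these values passed the threshold. Each library held at least 200 counts of each gene, and the part of counting error in the spread between mice was not tested.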

Other observations

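The balance of kinase and phosphatase transcripts was described as a ratio of levels per kb of exon in each library, without a test, since the pairs were chosen after their values were seen. The ratio of Syk to Ptpn6 was 0.835 ± 0.0646 (SD, n = 5) in DMSO Ova, 1.33 ± 0.125 in DMSO IC, 1.03 ± 0.127 in iBET Ova and 1.73 ± 0.0759 in iBET IC. It was higher with IC than with Ova without overlap in DMSO (0.743 to 0.900 against 1.18 to 1.52) and in iBET (0.894 to 1.23 against 1.67 to 1.85). The ratio of Lyn to Ptpn6 was 0.785 ± 0.0671 in DMSO Ova, 0.983 ± 0.172 in DMSO IC, 2.04 ± 0.360 in iBET Ova and 2.42 ± 0.154 in iBET IC. For SHIP1, the ratio of Lyn to Inpp5d was 1.31 ± 0.110 and 1.23 ± 0.0836 in the DMSO groups and 2.83 ± 0.205 and 2.73 ± 0.292 in the iBET groups, with Ova and IC in this order. That of Syk to Inpp5d was 1.39 ± 0.126 in DMSO Ova, 1.67 ± 0.112 in DMSO IC, 1.44 ± 0.172 in iBET Ova and 1.96 ± 0.205 in iBET IC. For both ratios of Lyn the iBET libraries lay above the DMSO libraries of the same stimulus without overlap. The ratio of Syk to Inpp5d overlapped between iBET and DMSO with either stimulus, and that of Syk to Ptpn6 overlapped with Ova and was higher with iBET without overlap with IC. These are transcript ratios, and protein or phosphorylation was not measured in these libraries. The size of each ratio also depends on the exon lengths used, and other lengths were not tested.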
